A study of Mus musculus with 60 samples.

Results

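The 10 genes described here were 9 genes used to recognise hepatic stellate cells and liver fibroblasts (Lrat, Des, Acta2, Pdgfra, Pdgfrb, Rgs5, Dcn, Lum and Reln) together with Timp1, an inhibitor of matrix-degrading enzymes. They were taken by name, and all 10 were found among the 17473 gene symbols of the liver RNA-seq table and among the 19355 symbols of the table of hepatocytes and their cultures. Expression was given as FPKM (fragments counted per length of transcript and per depth of the library).

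The study followed mouse livers after removal of 2/3 of the organ (partial hepatectomy, PHX) and hepatocytes that were made to divide in a dish in a medium with the cytokine IL6. The labels give every sample as wild type (WT) of strain C57BL/6 (C57BL/6J in the methods), and the mice were 8 to 10 weeks old. By the methods, however, single-cell clones were made from hepatocytes of Albumin-Cre mice carrying a tdTomato reporter, which the clone-1 labels do not mention. The liver table held 18 samples, 3 each of Normal liver and of liver collected 6 h, 24 h, 3 days, 7 days and 14 days after PHX (PHX-6h, PHX-24h, PHX-D3, PHX-D7 and PHX-D14). The cell table held 33 samples in 11 groups of 3. Hepatocytes were isolated by perfusing the liver with collagenase and purified on a Percoll gradient. IL6-iHPCs, dividing progenitor-like cells, were grown from them with IL6 at 30 ng/ml, EGF at 20 ng/ml and HGF at 20 ng/ml. They were sampled on day 3 and day 14 of the first culture (passage 0, P0) and in 4 passaged lines: mouse-1 at passage 10 (P10), mouse-2 at P10, mouse-1 again at P35, and clone-1 at P20, which was expanded from a single hepatocyte. IL6-iMHs were cells of the same 4 lines matured for 7 days in another medium, with oncostatin M (OSM) at 20 ng/ml. By the methods, this medium held no IL6, EGF or HGF and more dexamethasone than the IL6 medium. These changes of medium cannot be told apart in the comparisons of IL6-iMHs with IL6-iHPCs. IL6-iHPCs differed from Hepatocytes in plating, time in culture, IL6, EGF, HGF and dexamethasone at once. The samples used hold no P0 culture without IL6, so the part of IL6 in those comparisons cannot be told apart either. The 3 samples of a cell group are technical repeats by the description of the study, and the liver labels do not say whether samples came from separate animals, so p-values measured only the spread between these samples. Mouse-1 at P10 and at P35 is 1 source.

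Hepatic stellate cells lie between the hepatocytes and the lining of the liver sinusoids, where in the resting state they store vitamin A as retinyl esters. After liver injury they can take on a contractile, matrix-producing state marked by smooth muscle actin, respond to platelet-derived growth factor (PDGF) and secrete collagens, proteoglycans and TIMPs. TIMPs are secreted proteins that block matrix metalloproteinases, and stellate cells are not their only source.

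Whole reads could be recovered from the steps of the FPKM values, so the depth of each sample is known: 52.1 to 79.3 M reads on genes in the liver samples and 49.3 to 88.9 M in the cell samples. The same FPKM rests on fewer reads in a short gene: the liver values of Timp1 stood for a length of 862 bases and those of Reln for 11699 bases. Reads of both mates of a pair appear to be counted, since 69.0% of the liver values and 66.2% of the cell values between 1 and 20 reads were even. Intervals and floors therefore cover counting error at most, and a floor of 3 reads may stand for fewer than 3 fragments. PHX-D3 replicate 2 stood apart from the other PHX-D3 samples. Its summed level of recruited myeloid markers was 554 FPKM against 71.2 and 52.6 FPKM in replicates 1 and 3, that of Kupffer cell markers was 654 against 346 and 228 FPKM, and that of hepatocyte markers was 38416 against 48859 and 70695 FPKM. Differences of PHX-D3 from Normal liver in the text are given with and without it. The PHX-D14 samples had 2673 to 3690 reads on 4 Y-linked genes, against 7484 to 10652 in Normal liver. What part this had in the differences at day 14 was not tested. In the cell table, the clone-1 libraries went against their label: reads on 4 Y-linked genes numbered 6575 to 9095 in the IL6-iHPCs labelled clone-1 and 0 in the IL6-iMHs labelled clone-1. The Hepatocytes had 994 to 1550 such reads and the IL6-iHPCs of the P0 cultures 9185 to 18444. The mouse-1 and mouse-2 samples had 0 to 2, before and after maturation. These lines thus also differed in Y-linked reads from the Hepatocytes and P0 cultures, and the part of this in the comparisons was not tested. Differences of Timp1 and Dcn averaged over the lines are given with and without clone-1.

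The promoters of the 3 genes that rose at 24 h after PHX are shown first, since these are the regulatory sequences closest to the changes described below. Of the 10 genes, 7 were matched in the RefSeq promoter table of build GRCm38.p6 (Pdgfrb, Dcn and Lum were not), each as 300 bases from 250 bases before the transcription start to 50 bases after it, written 5′ to 3′ on the strand of the gene. The windows were chrX:20869916-20870215 (plus strand) for Timp1, chr19:34255324-34255623 (minus strand) for Acta2 and chr5:75152001-75152300 (plus strand) for Pdgfra. Capitals mark matches to a variant of the AP-1 site in Timp1 and to a variant of the CArG box in Acta2.
Timp1: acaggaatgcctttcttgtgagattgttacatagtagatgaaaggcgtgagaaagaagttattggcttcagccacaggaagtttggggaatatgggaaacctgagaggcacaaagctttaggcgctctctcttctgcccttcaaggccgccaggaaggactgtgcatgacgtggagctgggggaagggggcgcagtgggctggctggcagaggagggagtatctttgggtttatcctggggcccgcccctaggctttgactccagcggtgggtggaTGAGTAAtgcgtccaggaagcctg
Acta2: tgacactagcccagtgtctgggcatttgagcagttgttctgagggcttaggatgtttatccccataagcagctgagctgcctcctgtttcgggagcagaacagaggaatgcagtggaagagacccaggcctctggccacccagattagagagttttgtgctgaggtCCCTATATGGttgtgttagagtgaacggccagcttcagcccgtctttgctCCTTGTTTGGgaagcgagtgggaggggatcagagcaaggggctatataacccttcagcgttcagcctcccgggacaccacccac
Pdgfra: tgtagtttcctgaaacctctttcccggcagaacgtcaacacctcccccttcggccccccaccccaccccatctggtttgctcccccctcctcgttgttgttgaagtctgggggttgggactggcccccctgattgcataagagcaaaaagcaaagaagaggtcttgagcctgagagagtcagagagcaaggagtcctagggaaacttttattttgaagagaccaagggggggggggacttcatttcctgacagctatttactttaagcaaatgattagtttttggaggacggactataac

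The consensus AP-1 site TGANTCA, the site of the STAT factors that act downstream of IL6, TTCNNNGAA, and the CArG box bound by serum response factor were searched on both strands. They were in 7.81%, 8.30% and 1.63% of the 32851 promoters of the table, and none of the 3 was in the 7 promoters matched here. After the sequences were seen, 2 looser forms were added. The AP-1 variant TGANTAA, which was in 10.6% of all promoters, matched the Timp1 promoter from base 27 to base 33 after the start. The CArG variant, a CArG box with 1 inner base C or G, was in 8.50% of all promoters and matched the Acta2 promoter at bases -84 to -75 and -34 to -25 and the Lrat promoter at bases -223 to -214. The Pdgfra promoter held none of these letters. The 3 windows were alike in base composition, with 55%, 54.7% and 51% G and C for Timp1, Acta2 and Pdgfra. These matches describe letters in a window and were tied to no measurement of binding.

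The first question was how each of the 10 genes moved in the liver as it regrew. Each PHX group was compared with the same 3 Normal liver samples by limma on log2(FPKM + 1) across the 11114 genes that reached 1 FPKM in at least 3 samples, which included all 10. A gene was called changed at a Benjamini-Hochberg adjusted p under 0.05 and a difference of at least 2-fold. The scale understates the changes of low genes. In bulk tissue, fewer cells of a type and less RNA per cell cannot be told apart.

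Of the 10 genes, 2 rose at 6 h (Acta2 and Pdgfra), 3 at 24 h (Timp1, Acta2 and Pdgfra) and 1 at day 7 (Acta2), and 1 fell at day 14 (Lrat). Over all genes tested, 16.3% were called at 6 h, 7.9% at 24 h, 5.82% at day 3, 8.84% at day 7 and 2.98% at day 14. Counting the direction of these members alone, 4.78% rose at 6 h, 3.74% at 24 h and 7.81% at day 7, and 2% fell at day 14. None of the 10 was called at day 3, where 6 had an unadjusted p under 0.05 by limma and voom called 1. The median log2 difference of the 10 genes was 0.19 at 6 h, 0.80 at 24 h, 0.49 at day 3 (0.37 without PHX-D3 replicate 2), 0.47 at day 7 and -0.14 at day 14. Over all genes tested it was -0.28, -0.02, 0.01, 0.13 and -0.08, so at 6 h a difference of 0 lay above the median gene.

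**Figure D1:**
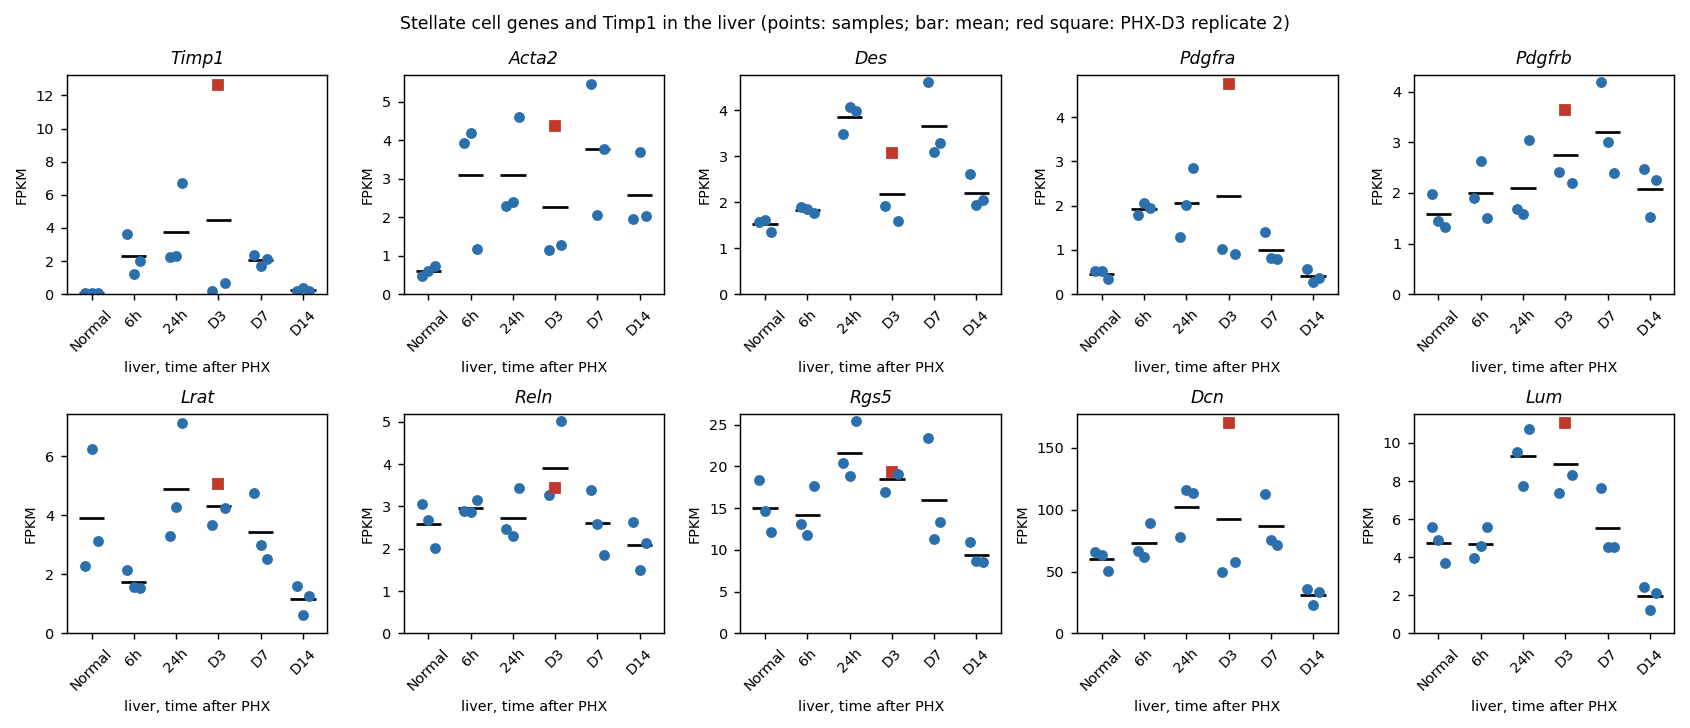
FPKM of the 10 genes (y axis, linear, starting at 0) in the 3 samples of Normal liver and of each time after PHX (x axis), with a bar at the group mean and PHX-D3 replicate 2 as a red square. That sample was the highest of all 18 for Timp1, Pdgfra, Dcn and Lum, and the Normal liver samples lay lowest for Timp1 and Acta2.

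Timp1 (chromosome X, 20870166 to 20874735, plus strand, mm10) encodes a secreted inhibitor of metalloproteinases. In Normal liver it was close to absent, at 0.041, 0.0832 and 0.1 FPKM, which rested on 2, 4 and 5 reads. At 6 h it stood at 3.63, 1.19 and 2.03 FPKM, and at 24 h at 2.27, 2.30 and 6.69 FPKM. At day 3 the samples held 0.170, 12.6 and 0.683 FPKM, at day 7 they held 2.38, 1.73 and 2.11 FPKM, and at day 14 they were at 0.202, 0.392 and 0.189 FPKM. Every sample taken after PHX lay above every Normal liver sample, and the 3 samples of day 14 rested on 10 to 18 reads each. The ratios of the mean FPKM to Normal liver were 30.5, 50.2, 60.1, 27.7 and 3.49 from 6 h to day 14, all over a denominator of 11 reads. The ratio at day 3 was 5.7 without PHX-D3 replicate 2.

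On the tested scale Timp1 rose at 24 h (log2 difference 2.02, SE 0.63, limma adjusted p = 0.0227). At 6 h the log2 difference was 1.54 with an adjusted p of 0.0502, at day 7 it was 1.51 with an adjusted p of 0.0843, and at day 14 it was 0.23. At day 3 it was 1.48 with PHX-D3 replicate 2 and 0.39 without it (limma adjusted p = 0.0869 and 0.411). The spread that this library added was shared by all groups of the fit. With the library left out, Timp1 was called at 6 h (adjusted p = 0.000312), at 24 h (adjusted p = 7.5e-05) and at day 7 (adjusted p = 0.000724), with the same log2 differences. In that fit it also fell by 1.64 on the log2 scale from 24 h to day 3, rose by 1.12 from day 3 to day 7 and fell by 1.28 from day 7 to day 14. The call at 24 h was lost when any Normal liver sample or PHX-24h replicate 3, the highest of its group, was left out, and was 1.61 without the latter.

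Acta2 (chromosome 19, 34241090 to 34255590, minus strand) encodes alpha smooth muscle actin, made by contractile stellate cells and by vascular smooth muscle. Its levels were 0.480, 0.593 and 0.728 FPKM in Normal liver, 3.92, 4.19 and 1.16 FPKM at 6 h and 2.29, 2.40 and 4.61 FPKM at 24 h. They were 1.15, 4.38 and 1.27 FPKM at day 3, 5.46, 2.06 and 3.76 FPKM at day 7 and 1.95, 3.71 and 2.04 FPKM at day 14. As with Timp1, no sample after PHX overlapped Normal liver, and the day 14 mean was 4.28 times that of Normal liver. Acta2 rose at 6 h (log2 difference 1.25, SE 0.39, limma adjusted p = 0.014), at 24 h (1.32, adjusted p = 0.0178) and at day 7 (1.51, adjusted p = 0.00854). At day 3 the difference was 0.89 and at day 14 it was 1.13 (limma adjusted p = 0.094 and 0.06), and without PHX-D3 replicate 2 they were 0.47 (not called) and 1.13 (adjusted p = 0.0195, called). Single samples carried some of these calls: the rise at 6 h was lost without PHX-6h replicate 1 or 2, that at 24 h without PHX-24h replicate 3 or Normal liver replicate 1, and that at day 7 without PHX-D7 replicate 1, where the difference was 1.26.

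Des (chromosome 1, 75360329 to 75368579, plus strand) encodes desmin, an intermediate filament of muscle and of rodent stellate cells. It was at 1.57, 1.61 and 1.36 FPKM in Normal liver, 1.91, 1.85 and 1.77 FPKM at 6 h, 3.50, 4.07 and 3.98 FPKM at 24 h and 4.62, 3.09 and 3.29 FPKM at day 7. It was at 1.92, 3.07 and 1.59 FPKM at day 3 and at 2.61, 1.94 and 2.04 FPKM at day 14. The day 3 samples overlapped Normal liver and those of all other times lay above it. The log2 difference was 0.95 at 24 h (SE 0.16, limma adjusted p = 0.000475) and 0.88 at day 7 (adjusted p = 0.000544), just under the 2-fold required. On the recovered reads, with voom, the same differences were 1.34 and 1.26 and both were called. Between neighbouring times Des stood 0.77 higher at 24 h than at 6 h, 0.63 lower at day 3 than at 24 h and 0.56 higher at day 7 than at day 3, each with a limma adjusted p under 0.05 and less than 2-fold. Without PHX-D3 replicate 2 the differences that hold day 3 were -0.82 and 0.75, and the difference of day 3 from Normal liver went from 0.32 to 0.13.

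Pdgfra (chromosome 5, 75152292 to 75198215, plus strand) and Pdgfrb encode the 2 receptor chains for PDGF, of which the second is the classical marker of activated stellate cells. Pdgfra was at 0.515, 0.528 and 0.338 FPKM in Normal liver and at 1.80, 2.05 and 1.94 FPKM at 6 h. It was at 1.3, 2.02 and 2.86 FPKM at 24 h, at 1.03, 4.74 and 0.919 FPKM at day 3, at 1.4, 0.815 and 0.806 FPKM at day 7 and at 0.562, 0.286 and 0.361 FPKM at day 14. Its samples lay above Normal liver up to day 7 and overlapped it at day 14. Pdgfra rose at 6 h (log2 difference 1.01, SE 0.31, limma adjusted p = 0.0125) and at 24 h (1.04, adjusted p = 0.0177), and the difference at day 3 was 0.95 with PHX-D3 replicate 2 (adjusted p = 0.0304) and 0.44 without it. Both calls stood close to the 2-fold line: the rise at 6 h was 0.94 without Normal liver replicate 3 and 0.98 without PHX-6h replicate 2, and that at 24 h was 0.85 without PHX-24h replicate 3.

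Pdgfrb moved less. It was at 1.97, 1.45 and 1.32 FPKM in Normal liver, 1.90, 2.62 and 1.5 FPKM at 6 h, 1.68, 1.59 and 3.04 FPKM at 24 h and 2.41, 3.63 and 2.19 FPKM at day 3. At day 7 it was at 4.19, 3.01 and 2.40 FPKM and at day 14 at 2.47, 1.53 and 2.26 FPKM. Samples overlapped Normal liver at 6 h, 24 h and day 14 and lay above it at days 3 and 7. The log2 difference was 0.69 at day 7 (SE 0.21, limma adjusted p = 0.0247), less than 2-fold on this scale and 1.02 with voom (adjusted p = 0.0223), where it was called. The ligands did not pass the test at any time: of the 4 PDGF genes, Pdgfa and Pdgfc were tested, with log2 differences from -0.82 to 0.31 for Pdgfa and from 0.02 to 0.89 for Pdgfc, and Pdgfb and Pdgfd reached means of at most 0.660 and 1.07 FPKM.

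**Figure D2:**
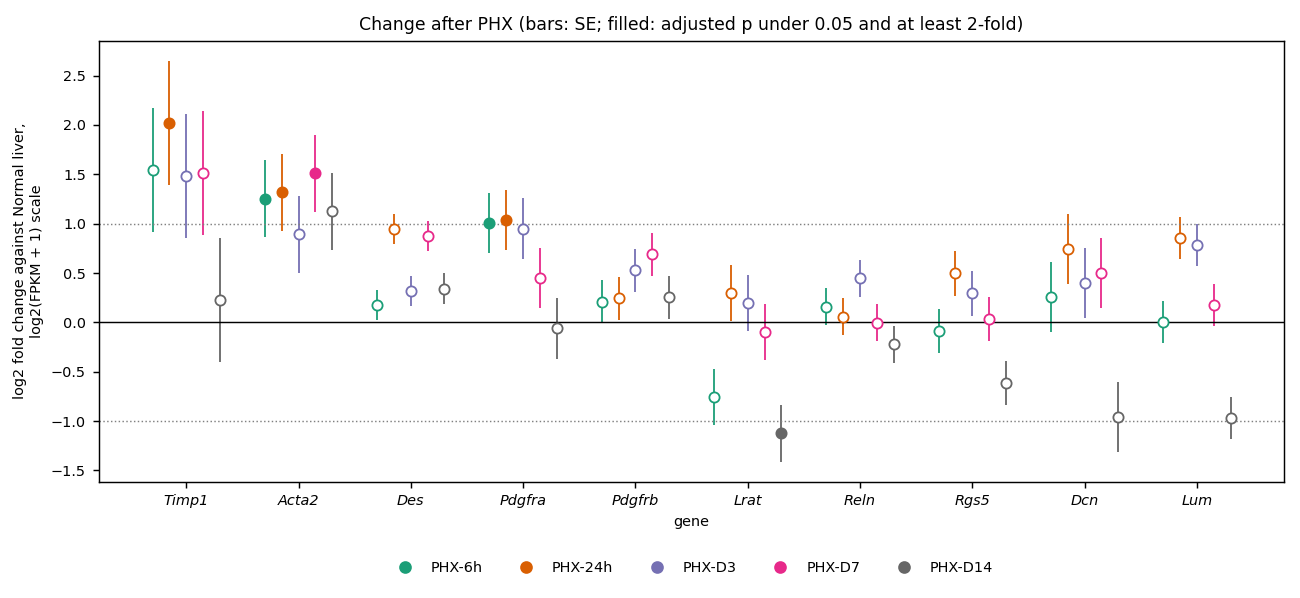
Log2 difference of each gene (x axis) from Normal liver at the 5 times after PHX (colours), on the log2(FPKM + 1) scale, with bars for the SE from limma. Filled points passed both thresholds, dotted lines mark 2-fold, and the 7 filled points lie at Timp1, Acta2, Pdgfra and Lrat.

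Lrat (chromosome 3, 82892579 to 82903973, minus strand) encodes the enzyme that esterifies vitamin A for storage and marks resting stellate cells. It was at 2.30, 6.26 and 3.13 FPKM in Normal liver, at 2.14, 1.59 and 1.54 FPKM at 6 h and at 3.31, 4.27 and 7.12 FPKM at 24 h. It was at 3.69, 5.05 and 4.25 FPKM at day 3, at 4.76, 3.00 and 2.53 FPKM at day 7 and at 1.60, 0.635 and 1.25 FPKM at day 14. The samples of 6 h and of day 14 all lay below Normal liver, and those of the times between overlapped it. The log2 difference was -0.76 at 6 h (SE 0.29, limma adjusted p = 0.0363, less than 2-fold) and Lrat fell at day 14, by 1.12 (adjusted p = 0.0138). At 6 h voom called Lrat lower (-1.02, adjusted p = 0.0385), and quantile normalization did not. Lrat rose by 1.05 from 6 h to 24 h (adjusted p = 0.00992) and fell by 1.03 from day 7 to day 14 (adjusted p = 0.0135), in comparisons that called 6.72% (5.19% higher) and 7.79% (7.35% lower) of all genes tested. Single samples carried both: the first was lost without PHX-6h replicate 3 or PHX-24h replicate 3 (0.80 to 1.00), and the second without PHX-D7 replicate 1 or PHX-D14 replicate 2 (-0.84 to -0.82).

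The fall at day 14 depended on Normal liver replicate 2, the sample with 6.26 FPKM: without it the difference was -0.80 and was not called, nor was it without PHX-D14 replicate 2 (-0.94). With quantile normalization, which gives all samples the same distribution of values, it was -0.97 and the 1 gene called at day 14 was Acta2 (1.26) in place of Lrat. The changes of Lrat between neighbouring times also fell short of the thresholds under that scaling, at 0.77 and -0.61.

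Reln and Rgs5 passed the test at no time. Reln (chromosome 5, 21884454 to 22344702, minus strand) encodes reelin, a secreted glycoprotein that resting stellate cells make. Its group means ran from 2.09 ± 0.57 FPKM at day 14 to 3.91 ± 0.96 FPKM at day 3 (SD, n = 3), against 2.58 ± 0.53 FPKM in Normal liver, and the highest sample was PHX-D3 replicate 3 at 5.01 FPKM. Rgs5 (chromosome 1, 169655501 to 169695813, plus strand), a regulator of G protein signalling found in pericytes, had the second highest level of the set. It was at 18.4, 14.6 and 12.2 FPKM in Normal liver, at 20.4, 18.8 and 25.4 FPKM at 24 h and at 11, 8.65 and 8.58 FPKM at day 14. The 24 h samples all lay above Normal liver and the day 14 samples all lay below it, with log2 differences of 0.50 (SE 0.22, limma adjusted p = 0.0999) and -0.62 (adjusted p = 0.0727).

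Dcn and Lum encode decorin and lumican, small leucine-rich proteoglycans that bind collagen fibrils. Dcn (chromosome 10, 97479609 to 97518143, plus strand) was the most highly expressed gene of the set in every liver sample. It was at 66.1, 63.8 and 50.6 FPKM in Normal liver, at 66.9, 61.9 and 89.5 FPKM at 6 h and at 77.8, 116 and 113 FPKM at 24 h. It was at 49.4, 170 and 58.2 FPKM at day 3, at 113, 75.4 and 71.9 FPKM at day 7 and at 36.0, 23 and 33.4 FPKM at day 14. All 24 h and day 7 samples were above and all day 14 samples below Normal liver, and within day 3 the library that stood apart was far above the others. The log2 differences were 0.74 at 24 h (SE 0.35, limma adjusted p = 0.117), 0.50 at day 7 and -0.96 at day 14 (adjusted p = 0.0767), none of which passed. Without PHX-D3 replicate 2 they kept their sizes, with adjusted p = 0.0114 at 24 h and 0.00463 at day 14, still under 2-fold, and the difference at day 3 went from 0.40 to -0.15.

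Lum (chromosome 10, 97565128 to 97572703, plus strand) lies next to Dcn on the same strand and was at a lower level. It was at 5.59, 4.92 and 3.70 FPKM in Normal liver, 3.98, 4.58 and 5.59 FPKM at 6 h, 9.54, 7.75 and 10.7 FPKM at 24 h and 7.36, 11 and 8.30 FPKM at day 3. It was at 7.62, 4.53 and 4.52 FPKM at day 7 and at 2.44, 1.25 and 2.14 FPKM at day 14. The samples of 24 h and day 3 lay above and those of day 14 below Normal liver. The log2 differences were 0.85 at 24 h (SE 0.21, limma adjusted p = 0.00706), 0.78 at day 3 (adjusted p = 0.014; 0.63 without PHX-D3 replicate 2) and -0.97 at day 14 (adjusted p = 0.00572), each short of 2-fold on this scale. At day 14 voom (-1.30, adjusted p = 0.0132) and a pseudocount of 0.1 (-1.27) called Lum lower, and quantile normalization did not.

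From day 7 to day 14 both proteoglycans fell, Dcn by 1.46 on the log2 scale (SE 0.35, limma adjusted p = 0.00592) and Lum by 1.15 (adjusted p = 0.000888), as did Lrat. That comparison called 7.35% of all genes tested as lower, and the median of all genes tested stood at -0.24. With quantile normalization Lum fell short of 2-fold in it (-0.75) while Dcn was still called, and Lum also did without PHX-D7 replicate 1 or PHX-D14 replicate 2 (-0.96 to -0.93). Of the other small leucine-rich proteoglycans, biglycan (Bgn) rose at day 7, from 30.8 ± 5.3 to 67.3 ± 20 FPKM (SD, n = 3; log2 difference 1.08, limma adjusted p = 0.00387), though not under quantile normalization (0.93). Prelp stood at 22.8 FPKM at day 7 against 11.1 FPKM in Normal liver (log2 difference 0.97) and Omd at 1.85 against 0.537 FPKM at 24 h (0.88), both under 2-fold.

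The other gene lists show what else changed beside the 10 genes. Of 16 other stellate cell markers tested, 1 rose and 2 fell at 6 h and 1 rose and 4 fell at 24 h. In either direction, 16.3% of all genes tested were called at 6 h and 7.9% at 24 h. Hgf, the hepatocyte growth factor made by stellate cells, rose at 6 h, 24 h and day 3 (log2 differences 1.43, 2.08 and 1.55; at day 3 0.98, not called, without PHX-D3 replicate 2), from 1.22 ± 0.41 FPKM in Normal liver to 8.46 ± 2.3 FPKM at 24 h (SD, n = 3). Pth1r, a receptor for parathyroid hormone, fell at 6 h and 24 h (by 1.82 and by 1.76). At day 7 Gdf2 rose (1.07) and at day 14 Colec10 fell by 1.05, both short of 2-fold under quantile normalization (0.86 and -0.88). The medians of this list were -0.22, -0.41, 0.13 (-0.01 without PHX-D3 replicate 2), 0.38 and -0.27 from 6 h to day 14, so at 24 h its median lay on the other side of 0 from that of the 10 genes.

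Among 8 smooth muscle and pericyte markers tested, Tagln, an actin-binding protein, rose at 6 h, 24 h, day 7 and day 14 (log2 differences 1.91, 2.17, 1.71 and 1.3). Its levels were 3.32 ± 0.13 FPKM in Normal liver and 18.7 ± 4.1 FPKM at 24 h (SD, n = 3). Thus 1 further contractile gene was called at each time at which Acta2 was, and also at day 14, where Acta2 was not. In this list Mcam also rose at 6 h (1.05), Abcc9 at day 3 (1.06) and Myl9 at day 7 (1.06), the last 2 short of the threshold under quantile normalization. Abcc9 was at 0.93 without PHX-D3 replicate 2, less than 2-fold. Of 9 portal fibroblast markers tested, Gas1 fell at 6 h, 24 h and day 3 (by 2.05, by 1.24 and by 1.20; at day 3 -0.86, not called, without PHX-D3 replicate 2), and Thy1 and Eln rose at day 7 (1.85 and 1.39). None of the 3 mesothelial markers tested was called at any of the 5 times by limma.

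Of 15 genes of stellate activation and matrix tested, 3 rose at 6 h, 4 at 24 h, 4 at day 3, 7 at day 7 and 2 at day 14, and none fell. Without PHX-D3 replicate 2 the count at day 3 was 2, Vim and Fn1. Among all genes tested, 4.78% rose at 6 h, 3.74% at 24 h and 7.81% at day 7. In either direction 5.82% were called at day 3 (4.16% without PHX-D3 replicate 2) and 2.98% at day 14. Ctgf, a matricellular growth factor, rose at 6 h (log2 difference 2.5). Of the fibrillar collagens, Col3a1 rose at day 3 (1.07; 0.81, not called, without PHX-D3 replicate 2) and Col1a1 and Col1a2 at day 7 (1.36 and 1.22), the last 2 short of the thresholds under quantile normalization (1.11 and 0.99). Vim, the intermediate filament vimentin, rose at 24 h, day 3 and day 7 (1.32, 1.46 and 2.84; at day 3 1.19 without PHX-D3 replicate 2). Ctgf is made by hepatocytes too, and all of these levels are those of whole liver.

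Timp1 was the only 1 of the 4 TIMP genes that was called at 24 h. Timp3, which binds to the matrix, rose at 6 h, from 4.66 ± 0.52 to 15.0 ± 2.5 FPKM (SD, n = 3; log2 difference 1.49, limma adjusted p = 5.39e-05). Timp2 was at 2.65 FPKM in Normal liver and its log2 differences lay between -0.31 and 0.63, and Timp4 had group means of at most 0.0943 FPKM. In Normal liver the order was therefore Timp3, Timp2, Timp1 and Timp4 by level.

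Markers of other liver cells moved at the same times. At 6 h 9 of 11 Kupffer cell and macrophage markers fell, and at day 7 all 11 rose, with summed levels of 266 to 407 FPKM in Normal liver, 102 to 199 FPKM at 6 h and 1466 to 2126 FPKM at day 7. Among all genes tested, 16.3% were called in either direction at 6 h and 7.81% rose at day 7. At 24 h the Kupffer cell markers summed to 220 to 239.5 FPKM. Hepatocyte markers summed to 56032 to 60436 FPKM in Normal liver, 46254 to 54175 FPKM at 6 h and 33554 to 38069 FPKM at 24 h, and sinusoidal endothelial markers to 168 to 183, 90.0 to 111 and 111 to 126 FPKM. Neither sum overlapped Normal liver at 6 h or 24 h. Recruited myeloid markers summed to 57.5 to 99.97 FPKM in Normal liver, 133 to 277 FPKM at 6 h, 64.5 to 176 FPKM at 24 h and 405 to 616 FPKM at day 7, where all 6 lymphocyte markers tested rose as well. The summed level of the 10 genes was 75.5 to 100.1 FPKM in Normal liver, 125 to 181 FPKM at 24 h, 106 to 170 FPKM at day 7 and 42.9 to 61.4 FPKM at day 14. The part of these cells in the levels of Timp1, Dcn and the other 8 genes was not tested.

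The second question was whether the same genes were present in hepatocytes and in the cells grown from them. Only Timp1 and Dcn reached 1 FPKM in at least 3 of the 33 cell samples, so 2 of the 10 genes were among the 12328 genes tested. The other 8 never did. The comparisons below share the 3 Hepatocytes samples. Most genes differed in them: limma called 66% of all genes tested at day 3, 62.9% at day 14, 59.4% in the passaged lines of IL6-iHPCs and 32.6% after maturation to IL6-iMHs. As higher it called 53.9%, 50%, 48.1% and 24.8% of them, and the median of all genes tested lay at 1.14, 1.00, 0.93 and 0.46 on the log2 scale. Differences are therefore to be read against these medians, and quantile normalization, which removes such a shift, is given where it changes a call.

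Timp1 had no read in any of the 3 Hepatocytes samples, where 3 reads would have been 0.0449 to 0.0617 FPKM. On day 3 of culture with IL6 it was at 40.2, 42.0 and 40.1 FPKM (1971 to 2457 reads), and on day 14 at 131, 134 and 116 FPKM. Against the highest floor of 3 reads per library, with each read taken as independent, the mean was at least 660-fold higher on day 3. On day 14 it was at least 2055-fold higher by the same floor. Day 14 was above day 3 in all samples (log2 difference 1.61, SE 0.07, limma adjusted p = 2.04e-17), in a comparison that called 10.2% of all genes tested, 5.12% as higher.

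The passaged lines kept Timp1 at a level that did not overlap Hepatocytes in any line. It was at 102, 101 and 92.9 FPKM in the IL6-iHPCs of mouse-1 at P10, at 136, 137 and 129 FPKM in those of mouse-2, at 111, 102 and 105 FPKM in those of mouse-1 at P35 and at 62.7, 64.8 and 76.7 FPKM in those of clone-1. In the matured IL6-iMHs it was at 17.2, 13 and 15.2 FPKM in mouse-1 at P10, at 23.5, 25.2 and 24.3 FPKM in mouse-2, at 7.24, 7.48 and 7.42 FPKM in mouse-1 at P35 and at 45, 46.1 and 42.7 FPKM in clone-1. Every IL6-iMH sample lay below every IL6-iHPC sample of its own line and above Hepatocytes. By the same floor, lower bounds on the fold over Hepatocytes were 1601, 2170, 1716 and 1103 for the IL6-iHPCs of the 4 lines in this order. For their IL6-iMHs they were 245, 393, 119 and 722.

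With maturation Timp1 fell by 2.33 (log2, SE 0.04, limma adjusted p = 1.2e-29) as a mean over the 4 lines, against a median of -0.40 over all genes tested, of which 28.1% were called and 21.4% were lower. Timp1 fell by 2.64 in mouse-1 at P10, fell by 2.41 in mouse-2 and fell by 3.67 in mouse-1 at P35, where 15.4%, 28.6% and 35.1% of all genes tested were called lower. In clone-1 the difference was -0.59 (limma adjusted p = 2.74e-08), less than 2-fold, with 17.7% of all genes called lower, and this is the line whose 2 groups differed in their Y-linked reads. Leaving out clone-1, the mean change was -2.91 for Timp1 and -2.60 for Dcn, and no call on the mean of the lines changed. Between pairs of lines the size of the fall differed for Timp1 in 5 of 6 pairs and for Dcn in 4 of 6. This was by limma at an adjusted p under 0.05 with no fold threshold, a rule for which no share of all genes is given. For Dcn the difference between mouse-2 and mouse-1 at P35, 0.49, was less than 2-fold. A 2-fold threshold would drop that pair and no pair of Timp1. With the 2-fold threshold as well, the tests called 14.7%, 33.7%, 30.8%, 35.6%, 39.4% and 22.8% of all genes. In this order the pairs were mouse-1 at P10 against mouse-2, mouse-1 at P35 and clone-1, mouse-2 against mouse-1 at P35 and clone-1, and mouse-1 at P35 against clone-1. The order of the 11 groups by mean Timp1 was IL6-iHPCs of mouse-2, the day 14 culture, IL6-iHPCs of mouse-1 at P35 and at P10, IL6-iHPCs of clone-1, IL6-iMHs of clone-1, the day 3 culture, IL6-iMHs of mouse-2, of mouse-1 at P10 and of mouse-1 at P35, and Hepatocytes. Within it the ranges overlapped between the IL6-iHPCs of mouse-2 (129 to 137 FPKM) and the day 14 culture (116 to 134 FPKM) and between the IL6-iHPCs of mouse-1 at P35 and at P10.

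**Figure D3:**
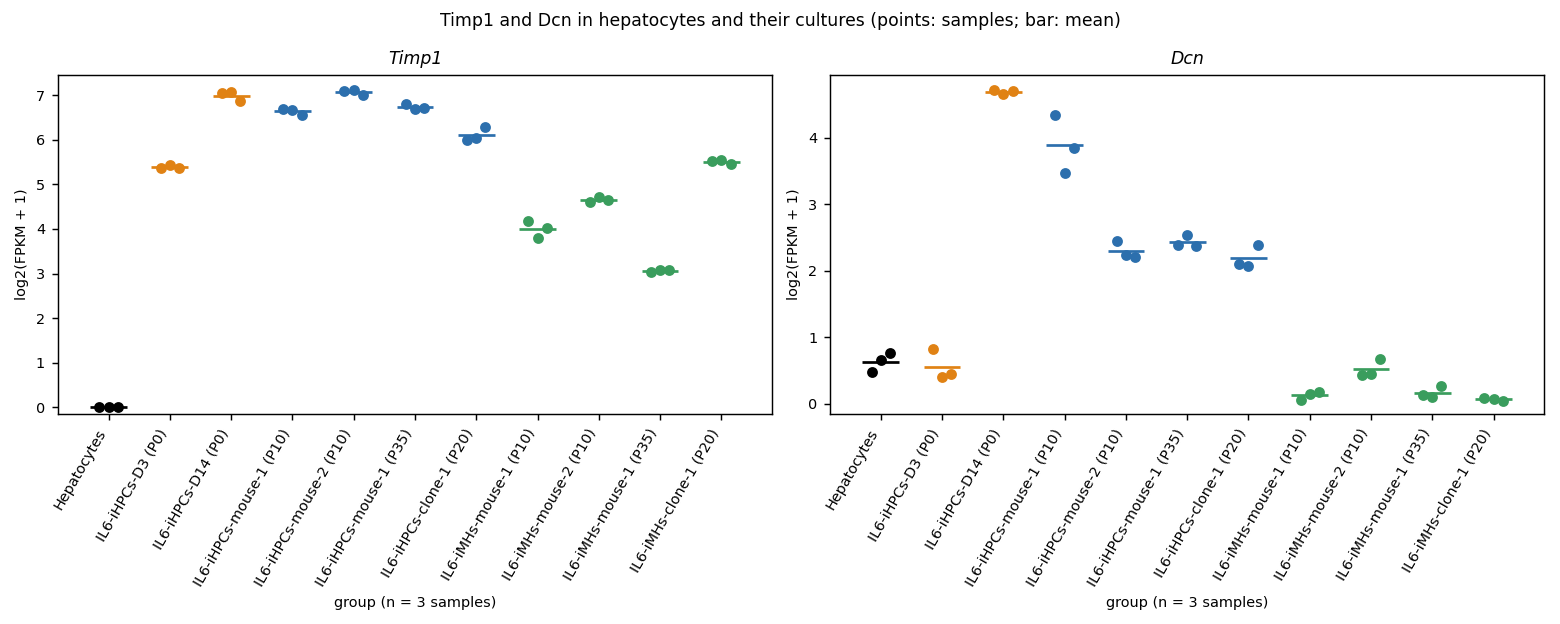
Timp1 and Dcn as log2(FPKM + 1) (y axis) in the 3 samples of each of the 11 cell groups (x axis), with a bar at the group mean. Timp1 is at 0 in Hepatocytes alone, and Dcn is above its Hepatocytes level in the day 14 culture and the 4 IL6-iHPC lines. Levels under 1 FPKM lie close together on this scale: Dcn overlaps Hepatocytes on day 3 and in the IL6-iMHs of mouse-2 and is below it in the other 3 IL6-iMH lines.

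Dcn was the other gene of the set with a clear level in culture, and its course differed from that of Timp1. In Hepatocytes it was at 0.398, 0.579 and 0.690 FPKM (50 to 83 reads). In Normal liver it was at 60.2 ± 8.4 FPKM (SD, n = 3), in another table and so set beside it with no test. On day 3 it was at 0.778, 0.327 and 0.361 FPKM, and on day 14 at 25.3, 24.3 and 24.9 FPKM. The day 3 samples overlapped Hepatocytes and the day 14 samples lay far above both. The log2 difference from Hepatocytes was -0.07 on day 3 (SE 0.13, limma adjusted p = 0.613) and Dcn rose by 4.06 on day 14 (SE 0.13, adjusted p = 3.85e-22). Because the median gene stood higher on day 3, quantile normalization put Dcn at -1.29 there and called it lower.

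In passaged IL6-iHPCs Dcn was at 19.3, 10.1 and 13.3 FPKM in mouse-1 at P10, at 4.46, 3.71 and 3.63 FPKM in mouse-2, at 4.22, 4.82 and 4.20 FPKM in mouse-1 at P35 and at 3.30, 3.19 and 4.25 FPKM in clone-1. Mouse-1 at P10 thus stood above the other 3 lines, and the same source had less by P35. Dcn rose against Hepatocytes as a mean over the lines (log2 difference 2.07, SE 0.11, limma adjusted p = 1.81e-17; 2.24 without clone-1), but under quantile normalization the difference was 0.86, less than 2-fold, and of the single lines only mouse-1 at P10 was still called.

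In IL6-iMHs Dcn was at 0.0425, 0.106 and 0.131 FPKM in mouse-1 at P10, at 0.352, 0.365 and 0.598 FPKM in mouse-2, at 0.0983, 0.0730 and 0.199 FPKM in mouse-1 at P35 and at 0.0574, 0.0538 and 0.0329 FPKM in clone-1, from 4 to 70 reads a sample. Mouse-2 overlapped Hepatocytes and the other 3 lines lay below. With maturation Dcn fell by 2.48 (log2, SE 0.07, limma adjusted p = 3.52e-24) as a mean of the lines. It fell in each line, with log2 differences of -3.76, -1.78, -2.27 and -2.12 for mouse-1 at P10, mouse-2, mouse-1 at P35 and clone-1. With IL6-iMH levels under 1 FPKM, the pseudocount of 1 makes these sizes follow mainly the level before maturation. The ratio of mean FPKM to Hepatocytes went from 25.6 to 0.168 in mouse-1 at P10 and from 7.08 to 0.789 in mouse-2. It went from 7.95 to 0.222 in mouse-1 at P35 and from 6.45 to 0.0865 in clone-1. Against Hepatocytes the mean difference of IL6-iMHs was -0.41 (SE 0.11, adjusted p = 0.000751; -0.36 without clone-1), less than 2-fold with a pseudocount of 1. With a pseudocount of 0.1 it was -1.44, with quantile normalization -1.20 and with voom on the reads -2.16, and all 3 called it lower.

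The 8 remaining genes were low in the cell samples, with at most 12 reads in a passaged sample except for Rgs5 in the IL6-iHPCs of mouse-1 at P35 (31 to 47 reads). Pdgfra reached the highest level of the 8, in the P0 cultures: 0, 0.0231 and 0.0132 FPKM in Hepatocytes (0, 12 and 5 reads) became 0.572, 0.533 and 0.729 FPKM on day 3 (218 to 292 reads) and 0.481, 0.487 and 0.533 FPKM on day 14 (172 to 198 reads). All samples of both days lay above all Hepatocytes samples. In a fit without the filter on low genes its log2 differences were 0.67 (SE 0.024, limma adjusted p = 4.5e-19) and 0.57 (adjusted p = 1.74e-17), less than 2-fold on this scale because a level of 0.5 FPKM is small beside the pseudocount of 1. In the passaged lines it was back at 0 to 0.0240 FPKM, at most 10 reads a sample, in IL6-iHPCs and IL6-iMHs alike.

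**Figure D4:**
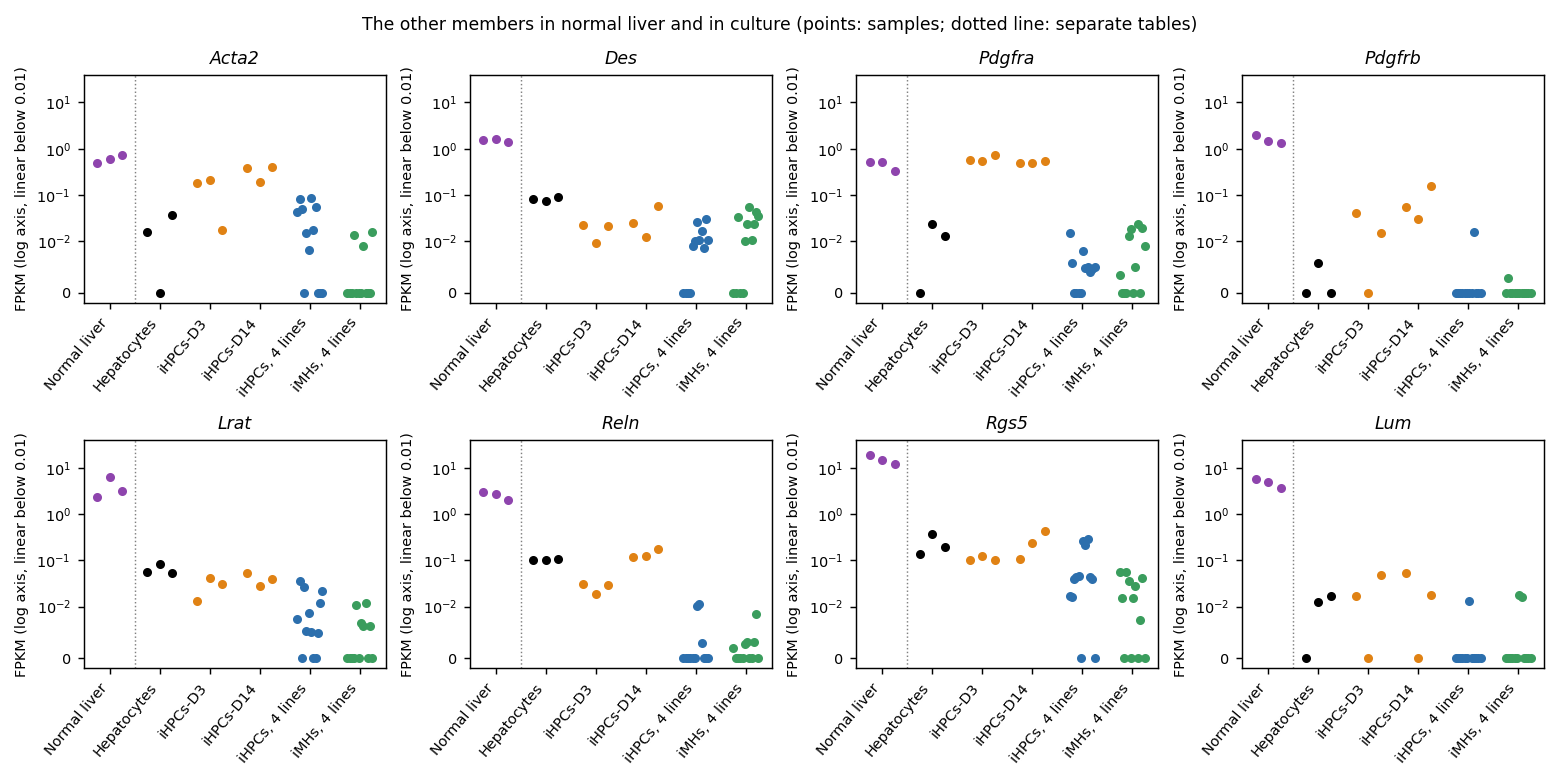
FPKM of the 8 low genes (y axis, logarithmic above 0.01 FPKM and linear below) in Normal liver, from the separate liver table, and to the right of the dotted line in Hepatocytes, the P0 cultures and the 12 samples each of passaged IL6-iHPCs and IL6-iMHs. All 8 lie below their Normal liver level in Hepatocytes. Pdgfra lies above all Normal liver samples on day 3 and overlaps them on day 14, with no test between the separate tables.

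Acta2 was at 0.0157, 0 and 0.0378 FPKM in Hepatocytes, 0.178, 0.212 and 0.0178 FPKM on day 3 and 0.389, 0.190 and 0.404 FPKM on day 14, where 19 to 42 reads a sample were seen. In the 12 passaged IL6-iHPC samples it was at 0 to 0.0866 FPKM, and in IL6-iMHs 9 of 12 samples had no read. Pdgfrb had 0 to 2 reads in Hepatocytes and 7 to 39 reads on day 14, and 1 of 12 IL6-iHPC samples and 1 of 12 IL6-iMH samples had any. Reln was at 0.101, 0.103 and 0.106 FPKM in Hepatocytes (70 to 93 reads), 0.0300, 0.0189 and 0.0300 FPKM on day 3 and 0.118, 0.125 and 0.177 FPKM on day 14, and had no read in 9 of the 12 passaged IL6-iHPC samples. Its highest count in culture, 115 reads on day 14, is spread over a long transcript.

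Lrat and Des had no cultured sample above a Hepatocytes sample. Lrat was at 0.0530 to 0.0844 FPKM in Hepatocytes and at most at 0.0525 FPKM in any cultured sample, and 7 of 12 IL6-iMH samples had no read. Des was at 0.0758 to 0.0926 FPKM in Hepatocytes and at most at 0.0588 FPKM in culture. Rgs5 was at 0.134 to 0.363 FPKM in Hepatocytes (22 to 68 reads) and at 0 to 0.289 FPKM in passaged IL6-iHPCs, with its highest value, 0.440 FPKM or 59 reads, on day 14. Lum, the neighbour of Dcn, did not move with it in culture: it had 0 to 6 reads on day 14, where Dcn had 2397 to 2557, and no read in 11 of 12 IL6-iHPC samples.

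The other stellate cell markers were read in the same samples. Of 18, 4 were tested. Ecm1 rose on day 14, in the passaged lines and after maturation (log2 differences 4.24, 2.86 and 1.79) and Rspo3 on day 14 and in IL6-iHPCs (1.63 and 1.33), and Bambi rose in IL6-iMHs (1.11, though 0.52 under quantile normalization). The transcription factors Hand2 and Tcf21 and cytoglobin (Cygb), which define stellate cells more narrowly, had no read in any passaged sample and at most a mean of 0.0884 FPKM elsewhere in the cell table. In Normal liver their means were 2.10, 3.50 and 3.17 FPKM. Fibrillar collagen genes were low too, with group means of at most 0.374 FPKM for Col1a1, 0.0679 FPKM for Col1a2 and 0.655 FPKM for Col3a1.

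Markers of other mesenchymal cells were uneven within their lists. Fbln2 (fibulin-2, a portal fibroblast marker) was at 0 in Hepatocytes and at means of 298 FPKM on day 3, 352 FPKM on day 14, 220 to 653 FPKM in the IL6-iHPC lines and 24.1 to 35.4 FPKM in the IL6-iMH lines, while Eln, Mfap4 and Thy1 of the same list were at 0 in most passaged lines. Entpd2 of that list was at means of 30.1 to 58.6 FPKM in the IL6-iMH lines. Msln (mesothelin, a mesothelial marker) was listed at 0 in Hepatocytes and had means of 0.714 FPKM on day 3, 99.3 FPKM on day 14, 72.1 to 346 FPKM in IL6-iHPC lines and 60.9 to 155 FPKM in IL6-iMH lines. Of the same list Krt19, a keratin that bile duct cells also make, rose with it, to means of 7.65 to 735 FPKM in the IL6-iHPC lines, and Wt1 never had a mean above 0.0348 FPKM. Smtn, a smooth muscle marker, rose by 3.99 on day 14 and by 3.47 in passaged IL6-iHPCs, while Tagln did not pass the 2-fold threshold there (0.51 and -0.01), though quantile normalization called it lower in the second (-1.16). Vim rose by 7.40 and 7.45 in these comparisons, from 1.92 ± 0.27 FPKM in Hepatocytes to 492 ± 12 FPKM on day 14 (SD, n = 3). Of 14 genes of stellate activation and matrix tested, 13 rose on day 14, 12 rose in the passaged lines and 10 after maturation, and the fibrillar collagens were not among those tested. The shares of all genes tested that rose in these comparisons were 50%, 48.1% and 24.8%.

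Markers of other kinds of cells were read in the Hepatocytes samples: Kupffer cell and macrophage markers summed to 21.4 to 25.4 FPKM, lymphocyte markers to 8.05 to 8.86 FPKM, red blood cell markers to 107 to 124 FPKM and sinusoidal endothelial markers to 27.5 to 31.8 FPKM. In passaged IL6-iHPCs the sums were 0.957 to 9.65, 0 to 0.096, 0.131 to 0.322 and 1.67 to 4.70 FPKM. Not all of these lists were low in culture: recruited myeloid markers summed to 18.8 to 22.3 FPKM in Hepatocytes and to 77.0 to 267 FPKM in passaged IL6-iHPCs, where Cd14 and S100a8 rose and Lyz2, Ly6c2 and S100a9 fell. Kupffer cell and macrophage markers reached 32.5 to 40.7 FPKM in the IL6-iMHs of mouse-1 at P35. Hepatocyte markers summed to 77077 to 83111 FPKM in Hepatocytes, 948 to 1107 FPKM on day 3, 1956 to 10201 FPKM in passaged IL6-iHPCs and 60172 to 81486 FPKM in IL6-iMHs. Whether the markers of other cells in Hepatocytes came from residual non-parenchymal cells was not tested. The part of such cells in the Hepatocytes levels of Dcn, Rgs5, Reln and Lrat was not tested either.

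The rest of the TIMP family changed in its own way in culture. Timp2, an inhibitor that also takes part in activating a metalloproteinase, was at 0.0960 FPKM in Hepatocytes, 1.85 FPKM on day 3 and 43.2 FPKM on day 14 (group means). In the IL6-iHPC lines it was at 37.6, 41.9, 138 and 117 FPKM for mouse-1 at P10, mouse-2, mouse-1 at P35 and clone-1, and in the IL6-iMH lines at 23.4, 16.4, 51.1 and 53.7 FPKM. It rose on day 14, in IL6-iHPCs and in IL6-iMHs (log2 differences 5.33, 6.04 and 4.92) and fell by 1.13 with maturation. Timp1 was the higher of the pair at P0, in the IL6-iHPCs of both P10 lines and in the IL6-iMHs of mouse-2, while Timp2 was the higher in mouse-1 at P35 and clone-1, before and after maturation, and in the IL6-iMHs of mouse-1 at P10.

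Timp3 was at 0.411 FPKM in Hepatocytes, 1.43 FPKM on day 3 and 2.47 FPKM on day 14, and at most 0.975 FPKM in a passaged line, and its rise on day 14 (1.3) was 0.00 under quantile normalization, which called it lower in IL6-iHPCs and IL6-iMHs (-1.06 and -1.28). Timp4 was near 0 before maturation (at most 0.0490 FPKM) and at 1.10, 4.01, 1.04 and 4.28 FPKM in the 4 IL6-iMH lines. It was the 1 TIMP gene that rose from IL6-iHPCs to IL6-iMHs (1.65, limma adjusted p = 1.37e-24), where Timp1 and Timp2 fell.

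**Figure D5:**
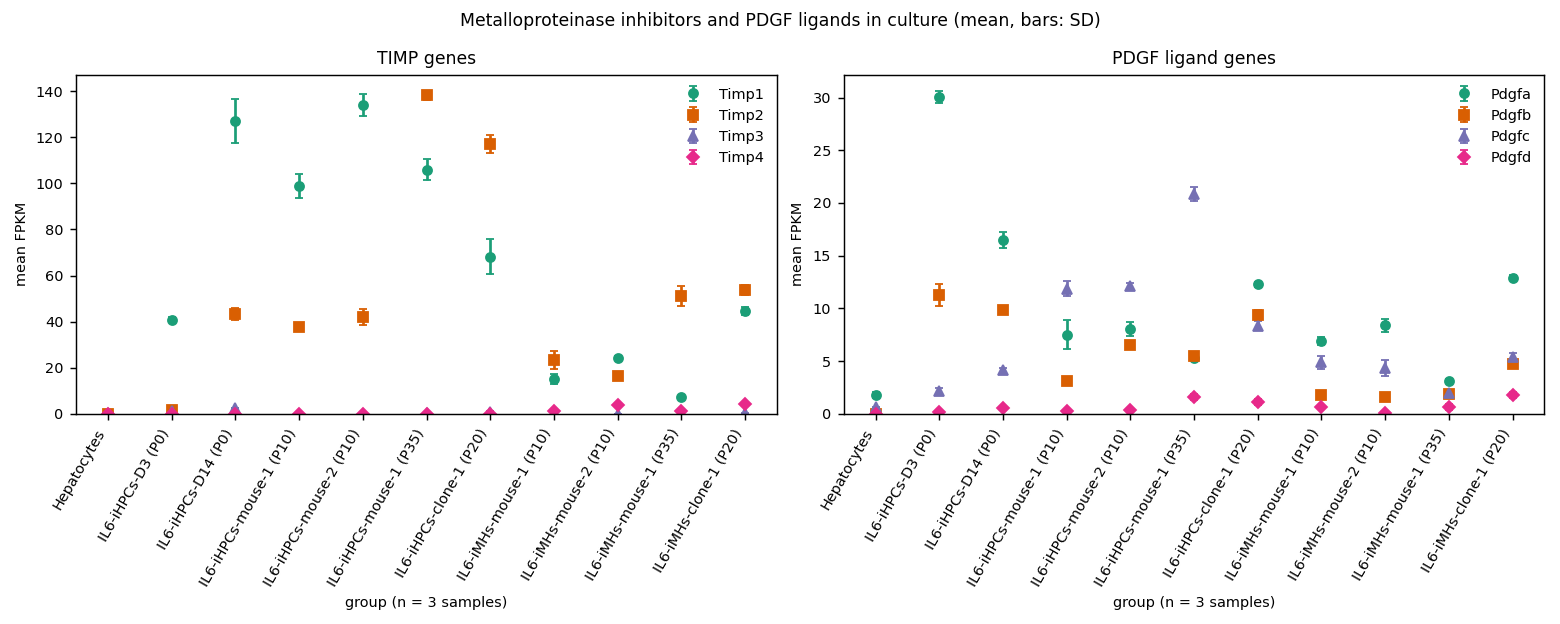
Mean FPKM (y axis, linear; bars: SD, n = 3) of the 4 TIMP genes and the 4 PDGF ligand genes in the 11 cell groups (x axis). Timp2 is above Timp1 in mouse-1 at P35 and in clone-1, and Pdgfa is the highest ligand in the P0 cultures while Pdgfc is the highest in 3 of the 4 IL6-iHPC lines.

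The PDGF ligands were measured in the same cultures. Pdgfa was at 1.79 FPKM in Hepatocytes, 30.1 FPKM on day 3, 16.5 FPKM on day 14 and 5.32 to 12.3 FPKM in the IL6-iHPC lines (group means), with log2 differences of 3.48, 2.65 and 1.68. Pdgfb went from 0.0279 FPKM to 11.3, 9.87 and 3.14 to 9.41 FPKM (3.58, 3.40 and 2.72). Pdgfc went from 0.604 FPKM to 2.15, 4.15 and 8.37 to 20.9 FPKM (0.97, 1.68 and 3.09), so it was highest after passaging, while the first 2 were highest on day 3. Under quantile normalization the calls of Pdgfa in IL6-iHPCs (0.38) and of Pdgfc on day 14 (0.32) were lost. From IL6-iHPCs to IL6-iMHs Pdgfb and Pdgfc fell by 1.04 and by 1.47, short of 2-fold under quantile normalization (-0.48 and -0.97), and Pdgfa did not pass the threshold (-0.15).

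Among the small leucine-rich proteoglycans other than Dcn, Prelp rose on day 14 and in IL6-iHPCs (log2 differences 2.14 and 1.79). Its level was 4.01 FPKM in the IL6-iHPCs of mouse-1 at P10, 20.8 FPKM in mouse-2, 0.412 FPKM in mouse-1 at P35 and 0.722 FPKM in clone-1, so the line with the most Prelp was not the line with the most Dcn. Bgn was at 1.14 FPKM in Hepatocytes and at most at 0.170 FPKM in a passaged line, and fell by 1.07 in IL6-iMHs. Quantile normalization also called Bgn lower on day 3, on day 14 and in IL6-iHPCs (-1.63, -1.15 and -1.91). Omd did not pass the threshold in the 5 comparisons with limma, and the other proteoglycans of the list were not tested.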

How the data were processed

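RNA-seq of 18 liver samples and 33 cell samples was used, 51 of the 60 samples of the series, and 9 were not used here. The authors deposited gene tables whose unit is not named in the files. The values were read as FPKM, since the deposited FPKM values were whole multiples of what 1 read is worth for all 17331 liver and 18830 cell genes above 0 (tolerance 0.02 reads). The submitters' processing notes name TopHat 1.4.1, Cufflinks 1.3.0 and mm10.

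Genes reaching 1 FPKM in at least 3 samples (11114 liver, 12328 cell) were tested on the log2(FPKM + 1) scale by limma (version 3.58.1, R version 4.3.3), with 1 fit per table over all its groups, with Benjamini-Hochberg adjustment. A call needed an adjusted p under 0.05 and 2-fold. Scripts used Python 3.11.15 with pandas 2.3.3, and were tested on simulated data. Alternatives were another pseudocount, no filter or one at 5 FPKM, quantile normalization, the replicate number as a block, voom on the recovered reads, only the compared groups, other fold thresholds and leaving out each sample. Those without PHX-D3 replicate 2 and without clone-1 were added after the data were seen.

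The 10 genes and 19 further lists were chosen with earlier results of these data known. Genes beyond the 10 were named from those lists as called or as defining markers. Some genes of the lists are not reported here by name, though they are in the counts. Depth was 52.1 to 79.3 M reads on genes per liver sample and 49.3 to 88.9 M per cell sample. The lowest chi-square per gene between replicates was 31.6 in the liver and 6.18 in the cell table, so no library was counted as deposited more than once. Symbols turned into dates numbered 25 and 27 and were kept as given. Samples sharing a number in the labels did not deviate together (median correlation -0.055 liver, -0.016 cells), so no pairing was used.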

Additional observations from a re-analysis of the deposited data

Results flagged for a closer look

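The change of Timp1 and Dcn from IL6-iHPCs to IL6-iMHs differed between lines by the test of the difference itself, for Timp1 in 5 of 6 pairs of lines and for Dcn in 4 of 6. These counts are by limma at an adjusted p under 0.05 over all genes tested, with no fold threshold. No share of all genes is given for that rule. With the 2-fold threshold as well, Dcn loses the pair of mouse-2 and mouse-1 at P35 and Timp1 loses none. The 6 pairs then called between 14.7% and 39.4% of all genes tested, and the lines are 1 culture each. Values are the log2 change of the line named first minus that of the line named second.

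For Timp1 the difference was 1.04 between mouse-1 at P10 and at P35 (adjusted p = 5.52e-10), 1.26 between mouse-2 and mouse-1 at P35 (adjusted p = 9.18e-12), -2.04 between mouse-1 at P10 and clone-1 (adjusted p = 2.22e-16), -1.82 between mouse-2 and clone-1 (adjusted p = 2.84e-15) and -3.08 between mouse-1 at P35 and clone-1 (adjusted p = 1.69e-20). Timp1 therefore fell most in mouse-1 at P35 and least in clone-1, whose libraries before and after maturation differed in their Y-linked reads. For Dcn it was -1.98 between mouse-1 at P10 and mouse-2 (adjusted p = 5.95e-10), -1.49 between mouse-1 at P10 and at P35 (adjusted p = 4.62e-08), -1.64 between mouse-1 at P10 and clone-1 (adjusted p = 8.8e-09) and 0.49 between mouse-2 and mouse-1 at P35 (adjusted p = 0.0208). The last of these was less than 2-fold. Dcn fell most in mouse-1 at P10, the line that held the most of it before maturation. Its IL6-iMH levels were under 1 FPKM, so with the pseudocount of 1 these differences follow mainly the level before maturation.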

How the results depend on the processing

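The direction of no member gene's called change turned under any alternative run. Of 1710 alternative values of single genes, 1628 kept their side of the threshold. Of 193 alternative counts, 151 equalled the reported count or lay within a ratio of 1.5 of it. With a filter at 5 FPKM, Acta2, Pdgfra and Timp1 were not tested, since each reached 5 FPKM in fewer than 3 liver samples. The counts of 0 given below for that filter are therefore set by it. Counts of the 10 genes called moved as follows, and where no value shows it the cause was not tested. At 6 h (2 genes) it was 0 with a filter at 5 FPKM, 4 with voom, 3 (with Timp1) with a pseudocount of 0.1, quantile normalization, only the compared groups or without PHX-D3 replicate 2, 3 with no fold threshold or one of 1.5, and 1 to 2 with one sample left out. At 24 h (3 genes) it was 0 with that filter, 4 (with Des) with a pseudocount of 0.1 or voom, 5 with no fold threshold or one of 1.5, and 0 to 3 with one sample left out. At day 3 (0 genes) it was 3 with a pseudocount of 0.1, 1 with voom, 2 with no fold threshold or one of 1.5, and 0 to 2 with one sample left out. At day 7 (1 gene) it was 3 with a pseudocount of 0.1, with voom and with no fold threshold or one of 1.5, 0 with the filter at 5 FPKM, 2 with only the compared groups and without PHX-D3 replicate 2, and 0 to 1 with one sample left out. At day 14 (1 gene) it was 3 with a pseudocount of 0.1, 2 with voom, with only the compared groups, with no fold threshold or one of 1.5 and without PHX-D3 replicate 2, and 0 to 2 with one sample left out.

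In the cells, quantile normalization gave 2 genes on day 3 (1 in the fit reported) and 1 in passaged IL6-iHPCs (2). In IL6-iMHs (1) a pseudocount of 0.1, quantile normalization, voom and no fold threshold each gave 2. The replicate block changed none of the 136 calls and counts, and 5 of 18 liver and 4 of 33 cell samples correlated best with their own replicate number. Depth limits the 8 genes that were low in the cells and Timp1 in Normal liver, which rest on few reads.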

Other observations

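The genes most like Timp1 across the 18 liver samples by Pearson's r on log2(FPKM + 1), among 11113 genes, were Cerk (0.934), Gpx3 (0.928), Vkorc1l1 (0.921), Ccl7 (0.918) and Anxa2 (0.917). For Dcn they were Chmp1b (0.956), Rbms1 (0.952), Slc4a7 (0.920), Actr2 (0.916) and Ap1s2 (0.915). These samples share PHX-D3 replicate 2, where both genes were highest. Across the 33 cell samples and 12327 genes they were Ssh3 (0.981), Anks6 (0.972), Hip1r (0.970), Wdr1 (0.970) and Calu (0.963) for Timp1 and Cyp1a1 (0.886), Frmd5 (0.881), Fam63a (0.879), Zfp523 (0.870) and LOC108167886 (0.866) for Dcn, over samples that are technical repeats within groups.

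Receptors of reelin rose in culture while Reln itself was near 0: Vldlr rose by 4.05 in passaged IL6-iHPCs and by 4.97 in IL6-iMHs, and Lrp8 by 1.74 in IL6-iHPCs, on the log2 scale by limma. In the liver, 3 of 4 Y-linked genes fell at day 14 (Eif2s3y, Ddx3y and Uty), with 2673 to 3690 reads on the 4 genes against 7484 to 10652 in Normal liver. Of all genes tested, 2% fell at that time.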
